A study of Homo sapiens with 4 samples.

Results

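The constitutive proteasome subunits are the genes of the standard form of the large protease that degrades ubiquitin-tagged proteins. They were taken by symbol: every gene of the PSMA, PSMB, PSMC and PSMD series, plus PSME3, PSME4 and PSMF1, without the interferon-inducible or thymus forms PSMB8, PSMB9, PSMB10 and PSMB11. Of the 38 symbols that matched, 37 reached 1 FPKM (fragments scaled by transcript length and library size) in at least 1 of the 2 columns used, out of 14319 genes that did so. The remaining symbol, PSMA8, the testis counterpart of PSMA7, was listed at 0 in both columns.

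The cells were a clonal derivative of BJ-5ta, a foreskin fibroblast line immortalised with telomerase, in which doxycycline switches on a FOXA2 transgene. The FOXA2 protein is a forkhead factor known from endoderm and liver. The induced group is 2 samples given 0.5 µg/ml doxycycline and the uninduced group is 2 samples of the same line without it. Both were grown with hygromycin B, puromycin and basic fibroblast growth factor. No culture with doxycycline and without the transgene was analysed here, so drug and FOXA2 cannot be told apart, and all cells come from a clonal line. An overnight treatment with mimosine, which halts cells in G1, is described for the series, and the labels do not say which cultures received it. The table holds 1 value per gene and group with a lower and an upper bound and no value per sample, so differences could not be set against the spread between cultures, and no test was run. The bounds are given below in brackets as the interval. FOXA2 was at 104 FPKM (50.2 to 158) in induced cells and 4.82 FPKM (0.526 to 9.12) in uninduced cells. All 10 fibroblast markers examined reached 1 FPKM, ranging from 3.84 to 905 FPKM in induced cells and from 36.8 to 2098 FPKM in uninduced cells, and FAP among them fell. The epithelial, endothelial and liver markers EPCAM, CDH1, KRT5, KRT14, PECAM1, CDH5, ALB and TTR were all under 1 FPKM in both columns. Of the melanocyte genes, MITF was at 3.66 FPKM induced and 8.62 FPKM uninduced, and PMEL at 1.46 FPKM induced and 0.753 FPKM uninduced. The leukocyte gene PTPRC was at 1.30 FPKM induced and 0.547 FPKM uninduced, and CD3E was listed at 0 in both columns. Of the fibroblast markers 7 were lower and 3 higher in induced cells (median log2 difference -0.57). They summed to 3044 FPKM in induced cells and 4912 FPKM in uninduced cells, of which VIM made up 905 FPKM induced and 2098 FPKM uninduced. COL3A1, at 445 FPKM induced and 125 FPKM uninduced, DCN and LUM were the 3 higher ones. The part of these markers in the differences below was not tested.

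The proteasome consists of a barrel-shaped core particle and a regulatory particle that caps it. The core stacks outer alpha rings, which form the gate, on inner beta rings, which hold the proteolytic sites. The regulatory particle has a base, where a ring of ATPases unfolds substrates, and a lid, which removes ubiquitin chains. Subunits are held in fixed numbers in each particle, and their genes are expressed in nearly all cells, with the transcription factor NFE2L1 raising them together when proteasome activity is short.

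None of the 37 genes rose or fell, where a gene is said to do so only if its 2 intervals do not overlap. In the same comparison 0.726% of the 14319 genes rose and 0.454% fell. The values nevertheless lay on one side: 35 of 37 genes were lower in induced than in uninduced cells, with a median log2 difference of -0.56 on the log2(FPKM + 1) scale. Over all 14319 genes the median was 0.054 and 46.3% lay below 0. Genes at high levels had lower values as a class. Among the 3198 other genes whose mean FPKM fell between the lowest and highest of the proteasome genes (36.1 to 232 FPKM), the median was -0.20 and 64.4% lay below 0, and 22.8% lay below the proteasome median. In 24 of 37 genes the log2 difference was between -0.4 and -0.8. At least a 2-fold difference was seen for 1 of 37 genes, PSMD2, lower in induced cells, where 6.03% of all genes were lower by that much, and for 0 of 37 higher, where 9.20% of all genes were. In RNA from whole cultures, less RNA per cell and fewer cells that express a gene cannot be told apart.

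The direction of the median did not depend on the scaling of the columns. It was -0.36 with both columns scaled to the same FPKM sum, with 32 of 37 genes below 0, and -0.33 after quantile normalization, with 33 below 0. The other genes at the same level then had medians of -0.0023 and -0.050. PSMA4, PSMD10 and PSMF1 had lower values in induced cells as deposited and higher values when scaled to the same sum, and PSMA4 and PSMF1 did so after quantile normalization too.

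**Figure D1:**
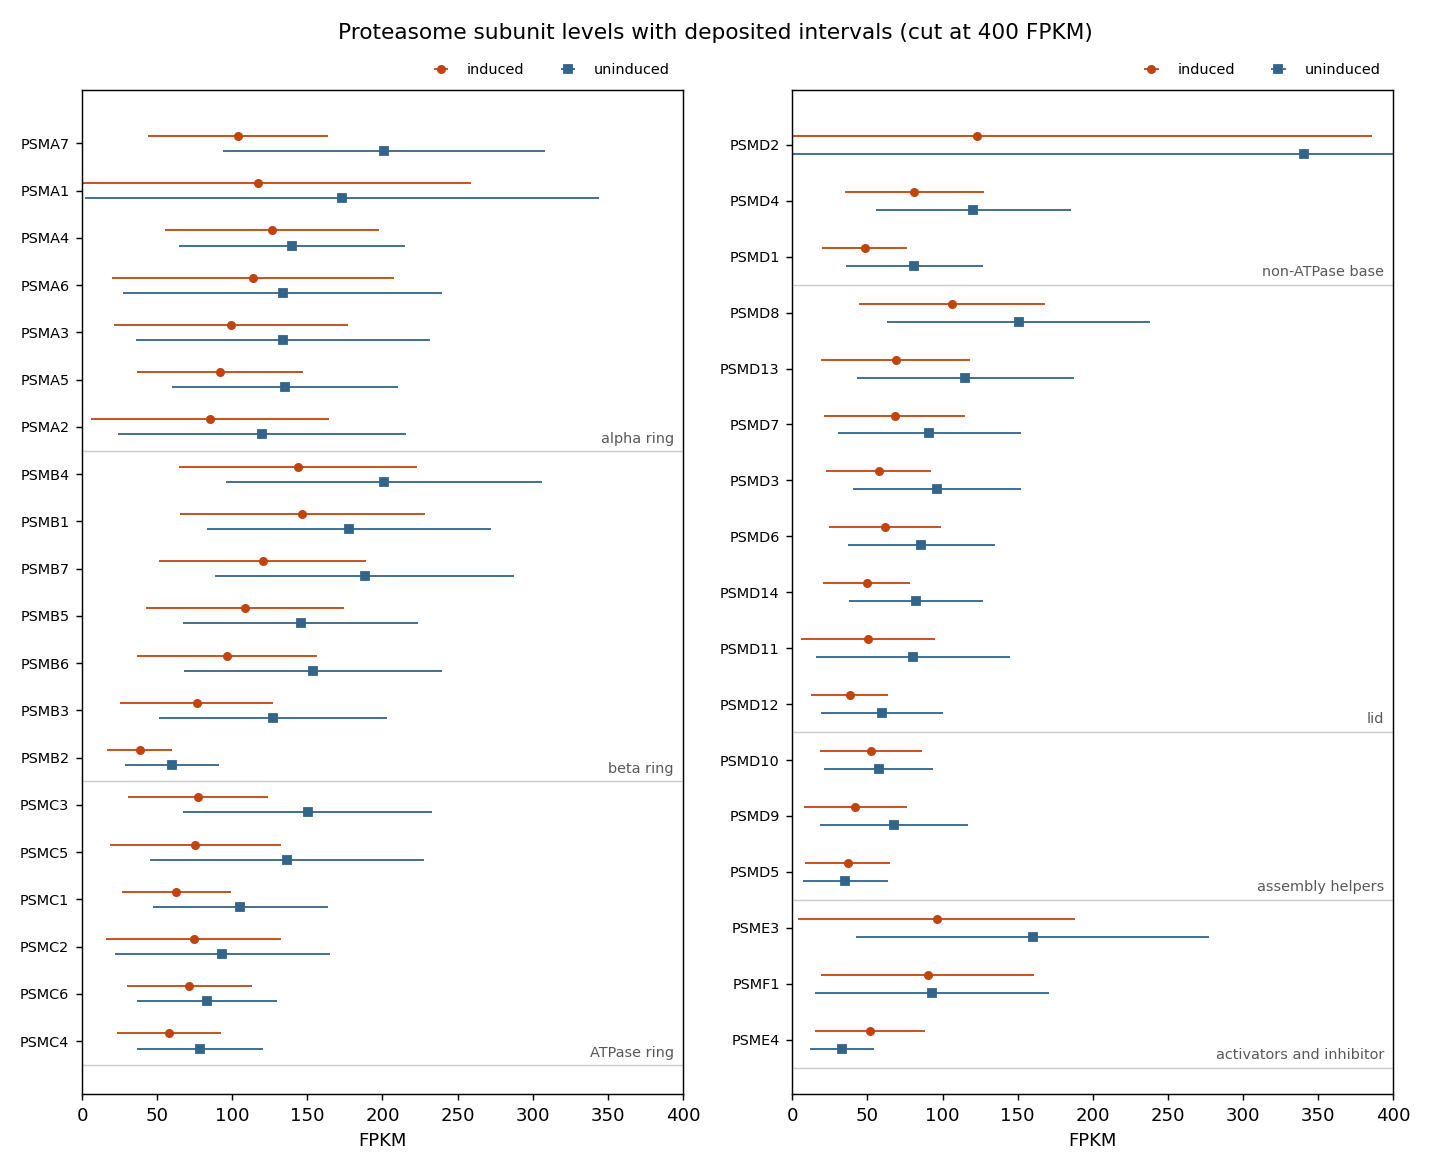
FPKM of each of the 37 proteasome genes (horizontal axis, FPKM) in induced cells (circles) and uninduced cells (squares), with lines for the deposited intervals, grouped by role and sorted by mean level within a group. The intervals overlap for every gene, and the circle lies left of the square for all but PSMD5 and PSME4. The uninduced interval of PSMD2 runs past the end of the axis at 400 FPKM.

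The intervals set a coarse limit. With upper bounds as far above the values, in relative terms, as deposited, a gene would have had to fall to a median of 26.1% of its uninduced level for its intervals to separate, and at best to 30.8% (PSMB4). The median of the observed levels was 67.8% of the uninduced level. An induced value of that size was therefore not separable at this precision, and the overlap does not show that the levels were equal. For 24 genes no other expressed gene overlapped the span given for the locus in the table. As deposited, all 24 were lower in induced cells, with a median of -0.59, beside 64.4% of other genes at the same level. PSMA4, PSMD10 and PSMF1, which were higher when scaled to the same FPKM sum, are all among these 24. The other 13 shared their span, and 11 of them were lower, with a median of -0.49. For the unshared genes the upper bound exceeded the induced value by a median of 59.3%, and for the shared ones by 78.7%.

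**Figure D2:**
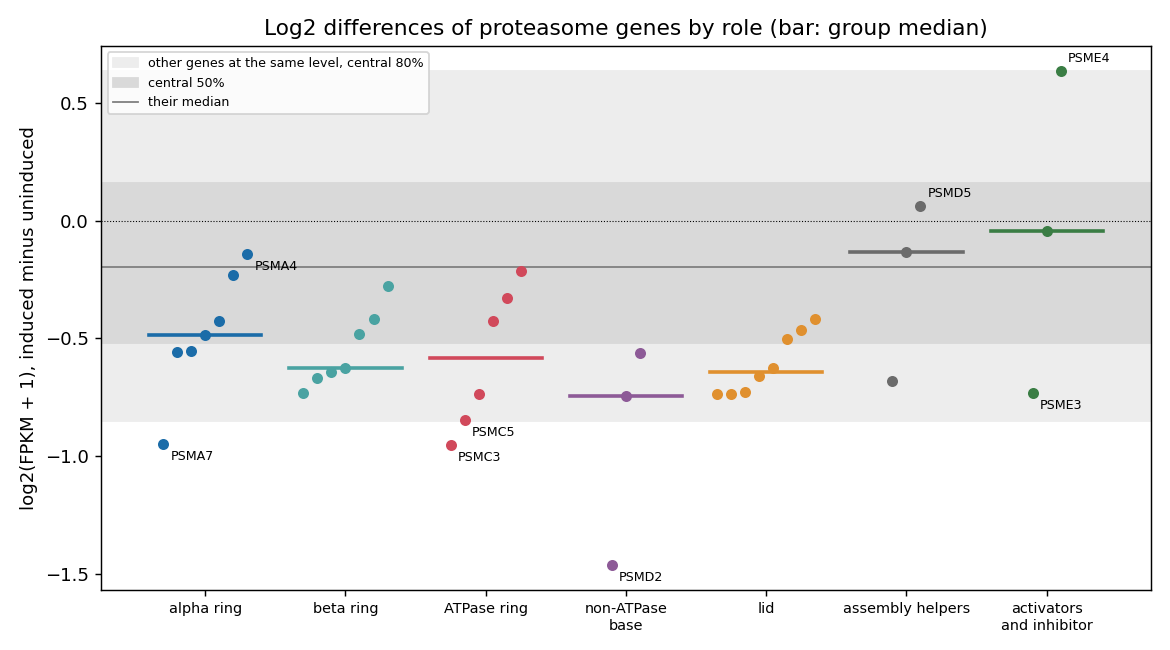
Induced minus uninduced difference in log2(FPKM + 1) of each proteasome gene (vertical axis), by role (horizontal axis), with a bar at each group median. Shading marks the central 80% and 50% of the 3198 other genes at the same level and the grey line their median of -0.20. All genes of the alpha, beta and ATPase rings, the non-ATPase base and the lid lie below 0.

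By role, all 31 detected structural subunits were lower in induced cells and the 6 other genes were mixed. The medians were -0.49 for the alpha ring, -0.63 for the beta ring, -0.58 for the ATPase ring, -0.75 for the non-ATPase base and -0.64 for the lid. For the other genes of the same level range as each group they were -0.34 at the alpha ring, -0.24 at the beta ring, -0.28 at the ATPase ring, -0.28 at the base and -0.23 at the lid. The core particle as a whole had a median of -0.52 and the regulatory particle -0.66. Core genes spanned -0.95 to -0.14 and regulatory genes -1.46 to -0.21, so the groups overlap over most of their range. The assembly helpers had a median of -0.13 and the activators and inhibitor -0.044. These last medians changed sign when FPKM sums were made equal (0.060 and 0.15), and that of the activators and inhibitor also after quantile normalization (0.18).

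The DNA just upstream of these genes is shown for 5 members, picked for their role, their difference or their motifs. They do not represent all members, and PSMD2, which had the lowest difference, is left out. PSMB5 is the catalytic subunit with an entry in the promoter table, and PSMC3 had the lowest log2 difference among genes with an unshared span. PSMD3 is a lid gene with a CCAAT box and an antioxidant response element core, and PSMD5 and PSME4 are the members with higher values in induced cells. Each run is the 250 bases before the annotated start, 5′ to 3′ on the gene's strand, from RefSeq in GRCh38.p14, which is not the build of the expression table. Capitals mark 4 motifs on either strand: the antioxidant response element core TGACNNNGC, bound by NFE2L1 and NFE2L2 with small MAF partners, the CCAAT box CCAAT, the ETS core CCGGAA and the forkhead motif TGTTTAC.
PSMB5 (chr14:23035221-23035470, minus strand): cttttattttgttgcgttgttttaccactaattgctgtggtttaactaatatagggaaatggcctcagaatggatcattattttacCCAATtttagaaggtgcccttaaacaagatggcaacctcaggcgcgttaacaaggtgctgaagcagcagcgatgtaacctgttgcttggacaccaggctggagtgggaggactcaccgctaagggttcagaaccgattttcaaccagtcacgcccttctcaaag
PSMC3 (chr11:47426440-47426689, minus strand): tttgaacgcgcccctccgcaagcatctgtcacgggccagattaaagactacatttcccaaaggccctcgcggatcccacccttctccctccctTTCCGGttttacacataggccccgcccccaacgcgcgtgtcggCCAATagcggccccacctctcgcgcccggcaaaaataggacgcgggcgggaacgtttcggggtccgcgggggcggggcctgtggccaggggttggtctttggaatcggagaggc
PSMD3 (chr17:39980557-39980806, plus strand): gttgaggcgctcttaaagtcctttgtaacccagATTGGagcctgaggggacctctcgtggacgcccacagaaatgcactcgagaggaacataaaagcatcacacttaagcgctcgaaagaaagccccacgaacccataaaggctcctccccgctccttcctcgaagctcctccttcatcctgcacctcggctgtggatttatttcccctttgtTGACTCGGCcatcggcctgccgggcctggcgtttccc
PSMD5 (chr9:120842923-120843172, minus strand): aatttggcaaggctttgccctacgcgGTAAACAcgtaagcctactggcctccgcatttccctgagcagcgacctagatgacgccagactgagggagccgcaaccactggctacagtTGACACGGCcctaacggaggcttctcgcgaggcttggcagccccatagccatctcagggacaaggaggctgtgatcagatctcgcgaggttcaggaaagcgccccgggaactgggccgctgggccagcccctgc
PSME4 (chr2:53970994-53971243, minus strand): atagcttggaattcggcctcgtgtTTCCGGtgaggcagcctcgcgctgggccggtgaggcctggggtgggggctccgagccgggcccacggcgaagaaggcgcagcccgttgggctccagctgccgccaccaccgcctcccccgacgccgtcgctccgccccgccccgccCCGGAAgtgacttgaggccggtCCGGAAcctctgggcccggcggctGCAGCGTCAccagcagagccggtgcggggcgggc

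In these windows PSMB5 holds a CCAAT box 159 bases before the start. PSMC3 holds a CCAAT box 109 bases and an ETS core, read on the opposite strand, 151 bases before it. PSMD3 has the response element core 28 bases and a CCAAT box, on the opposite strand, 212 bases before the start, and PSME4 has it 25 bases before the start on the opposite strand beside 3 ETS cores. PSMD5 has the response element core 125 bases before the start and a forkhead motif, on the opposite strand, 217 bases before it. Distances run from the motif's near end. Of 86 motif matches in the windows of all members, GC boxes included, 2 overlapped a match of another motif.

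Promoter entries were found for 32 of the 37 members, and PSMA7, PSMB1, PSMB6, PSMB7 and PSMD4 had none. The ETS core was in 14 of 32 windows (43.8%), against 14.8% of all 27305 promoters and 29.1% of the 2490 promoters of other genes at the same level of expression. All 14 belong to the ATPase ring, the PSMD series or the activators, and 0 of the 10 windows of the alpha and beta rings held one. The CCAAT box was in 15 of 32 (46.9%), against 33.0% of all promoters and 36.5% at the same level. The response element core was in 6 of 32 (18.8%), namely PSMB3, PSMD3, PSMD5, PSMD9, PSMD12 and PSME4, against 11.0% of all and 12.9% at the same level. The GC box GGGCGG was in 20 of 32 (62.5%), against 42.3% of all and 69.6% at the same level. The forkhead motif was in 2 of 32 (6.25%), PSMB2 and PSMD5, against 2.98% of all and 1.85% at the same level. By motif, the median log2 difference was -0.64 for the 14 genes with an ETS core and -0.49 for the 18 without it, and -0.50 for the 15 with a CCAAT box and -0.56 for the 17 without it. It was -0.64 for the 20 with a GC box and -0.45 for the 12 without it, and -0.65 for the 6 with the response element core and -0.50 for the 26 without it. These 6 are split: PSMB3, PSMD3, PSMD9 and PSMD12 lay between -0.74 and -0.63. PSMD5 (0.061) and PSME4 (0.63) are the only members with higher values in induced cells. For the 2 with a forkhead motif the median was -0.28, midway between PSMB2 at -0.63 and PSMD5 at 0.061, and it describes neither gene. For the 30 without that motif the median was -0.53. No difference between these medians was tested.

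The alpha ring guards the entrance to the core. PSMA7 (ENSG00000101182; chromosome 20, 60711791 to 60718496, hg19) was at 104 FPKM (43.7 to 164) in induced cells and 201 FPKM (93.6 to 308) in uninduced cells, a log2 difference of -0.95. It was the most abundant alpha subunit in uninduced cells and was exceeded by PSMA4, PSMA1 and PSMA6 in induced cells. PSMA4 was the gene of the ring with the smallest difference, -0.14, at 127 FPKM (55.2 to 198) induced and 139.8 FPKM (64.4 to 215) uninduced. PSMA1 was at 117 FPKM (0 to 259) induced and 173 FPKM (1.81 to 344) uninduced, and its span includes the neighbouring gene COPB1. PSMA3 and PSMA6, whose spans are also shared, were at 99.1 and 114 FPKM in induced cells, against 134 FPKM each in uninduced cells. PSMA5 was at 91.9 FPKM induced and 135 FPKM uninduced. PSMA2 had the lowest mean level of the ring, at 85.1 FPKM (5.75 to 164) induced and 119.7 FPKM (23.8 to 216) uninduced. The ring was even, with a highest to lowest ratio of 1.49 in induced cells and 1.68 in uninduced cells.

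The beta ring holds the active sites in PSMB5, PSMB6 and PSMB7, which cut after hydrophobic, acidic and basic residues, in that order. PSMB5 (chromosome 14, 23485752 to 23504439, hg19), the main target of the drug bortezomib, was at 109 FPKM (42.8 to 175) in induced cells and 146 FPKM (67.4 to 224) in uninduced cells, a log2 difference of -0.42. PSMB6 (chromosome 17, 4699439 to 4701790) was at 96.4 FPKM (36.6 to 156) in induced cells and 154 FPKM (67.8 to 239.7) in uninduced cells, a difference of -0.67. PSMB7 (chromosome 9, 127115745 to 127177723) was at 120.2 FPKM (51.1 to 189) in induced cells and 188 FPKM (88.8 to 287) in uninduced cells, a difference of -0.64. All 3 catalytic genes thus had lower values in induced cells with overlapping intervals, and each had its span to itself. Of the subunits without an active site, PSMB3 had the lowest difference, -0.73, at 76.4 FPKM (25.4 to 127) induced and 127 FPKM (51.4 to 203) uninduced. PSMB1 had the smallest difference, -0.28, at 147 FPKM (65.0 to 228) induced and 178 FPKM (83.1 to 272) uninduced. PSMB4 had the highest mean level of the ring, at 144 FPKM (64.3 to 223) induced and 201 FPKM (96.0 to 306) uninduced. PSMB2 was the least abundant, at 38.3 FPKM (16.7 to 59.9) induced and 59.7 FPKM (28.3 to 91.1) uninduced. The ring was uneven in both columns, with a highest to lowest ratio of 3.83 in induced cells and 3.37 in uninduced cells. These ratios rest on PSMB2, since the next lowest gene, PSMB3, was at 76.4 FPKM induced and 127 FPKM uninduced.

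The ATPase ring opens the gate of the core and feeds substrates into it. PSMC3 (chromosome 11, 47440320 to 47447993), whose tail docks into the alpha ring, was at 77.2 FPKM (30.3 to 124) in induced cells and 150.2 FPKM (67.4 to 233) in uninduced cells, a log2 difference of -0.95. PSMC5 was at 75.5 FPKM (18.7 to 132) induced and 137 FPKM (45.5 to 228) uninduced, with FTSJ3 in its span, and PSMC1 was at 62.8 FPKM (26.5 to 99.1) induced and 105 FPKM (47.2 to 164) uninduced. These were the most abundant members of the ring in uninduced cells. The smallest difference was that of PSMC6, -0.21, at 71.5 FPKM (30.2 to 113) induced and 83.0 FPKM (36.5 to 129.6) uninduced. PSMC2 was at 74.2 FPKM induced and 93.5 FPKM uninduced, with RELN and other genes in its span. PSMC4 was the least abundant, at 58.1 FPKM (23.5 to 92.7) induced and 78.5 FPKM (36.3 to 121) uninduced. The genes that were highest in uninduced cells had the lowest differences, although a difference contains the uninduced value and is not independent of it. The levels lay closer together in induced cells: the SD of log2(FPKM + 1) between the 6 genes was 0.16 in induced cells and 0.38 in uninduced cells. The highest to lowest ratio was 1.33 in induced cells and 1.91 in uninduced cells. The SD was also lower in induced cells in the non-ATPase base (0.67 induced and 1.06 uninduced), the assembly helpers (0.25 and 0.48) and the activators and inhibitor (0.48 and 1.14), each of 3 genes. In the alpha ring it was 0.20 induced and 0.26 uninduced, in the beta ring 0.66 and 0.59, and in the lid 0.43 and 0.39.

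In the non-ATPase base, PSMD1 and PSMD2 are large scaffold subunits. Of these PSMD2 receives ubiquitin-like domains of shuttle factors, and PSMD4 is a ubiquitin receptor. PSMD2 (chromosome 3, 183851807 to 184402546) had the lowest log2 difference of all members, -1.46, at 123 FPKM (0 to 386) in induced cells and 340.5 FPKM (0 to 937) in uninduced cells. Its span is shared with 12 other expressed genes, and both of its intervals start at 0. Without PSMD2 the median of the base was -0.65. PSMD1 was at 48.1 FPKM (19.9 to 76.2) induced and 81.3 FPKM (35.7 to 127) uninduced, a difference of -0.75. PSMD4 was at 81.3 FPKM (34.7 to 128) induced and 120.5 FPKM (55.7 to 185) uninduced, a difference of -0.56.

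The lid removes the ubiquitin chain. PSMD14, its deubiquitinating enzyme (chromosome 2, 162164549 to 162268228), was at 49.4 FPKM (20.3 to 78.6) in induced cells and 82.4 FPKM (38.0 to 127) in uninduced cells, a log2 difference of -0.73. PSMD7, its inactive partner, was at 68.0 FPKM (21.3 to 115) induced and 91.2 FPKM (30.3 to 152) uninduced, -0.42, the smallest difference in the lid. Of the scaffold subunits, PSMD13 had the lowest difference, -0.74, at 68.7 FPKM (18.9 to 118) induced and 115 FPKM (43.1 to 187) uninduced. PSMD3 was at 57.4 FPKM (22.6 to 92.1) induced and 96.3 FPKM (40.4 to 152) uninduced, also -0.74. PSMD8 was the most abundant, at 106 FPKM (44.1 to 168) induced and 151 FPKM (63.2 to 238) uninduced. PSMD12 was the least abundant, at 38.3 FPKM (12.7 to 63.8) induced and 59.6 FPKM (19.2 to 99.96) uninduced. PSMD11, which clamps the regulatory particle to the core, was at 50.3 FPKM induced and 80.1 FPKM uninduced, and PSMD6 was at 61.8 FPKM induced and 85.7 FPKM uninduced. All 8 differences lay between -0.74 and -0.42, the narrowest range among the rings, the base and the lid.

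The assembly helpers PSMD5, PSMD9 and PSMD10 bind ATPase subunits while the base is built and leave before the particle is complete. PSMD5 (chromosome 9, 123577774 to 123616651) was at 36.9 FPKM (8.56 to 65.2) in induced cells and 35.3 FPKM (6.81 to 63.8) in uninduced cells, a log2 difference of 0.061. Its span contains PSMD5-AS1, at 19.6 FPKM in induced cells and 6.75 FPKM in uninduced cells. The libraries do not keep strand, so where these genes overlap their reads cannot be told apart. PSMD9 was at 41.9 FPKM (7.57 to 76.2) induced and 67.7 FPKM (18.7 to 117) uninduced, a difference of -0.68. PSMD10, also known as gankyrin, was at 52.3 FPKM (18.1 to 86.5) induced and 57.5 FPKM (21.3 to 93.6) uninduced, a difference of -0.13.

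PSME3 and PSME4 encode nuclear activators that cap the core without ATPases. They differed in opposite directions. PSME4, or PA200 (chromosome 2, 54091204 to 54532437), had the highest difference of all members, 0.63, at 51.7 FPKM (15.0 to 88.4) in induced cells and 33.0 FPKM (11.6 to 54.3) in uninduced cells. PSME3 was at 96.0 FPKM (3.94 to 188) induced and 160.1 FPKM (42.5 to 278) uninduced, a difference of -0.73. PSME3 thus had 1.86 times the FPKM of PSME4 in induced cells and 4.86 times in uninduced cells, a ratio that scaling a whole column does not alter. Both intervals of each gene overlapped, and both spans are shared, that of PSME4 with ACYP2 and HMGB1P31 and that of PSME3 with BECN1. PSMF1, first described as an inhibitor of the core, was at 90.0 FPKM (19.4 to 161) induced and 92.8 FPKM (15.1 to 171) uninduced.

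The order of the levels was similar in the columns. Across the 37 genes the Spearman correlation between induced and uninduced FPKM was 0.91, as a description, since both columns share gene lengths and annotation. The genes lay between the 76.6th and the 96.5th percentile of all 14319 genes in induced cells and between the 73.0th and the 98.5th in uninduced cells. Median levels were 106 FPKM induced and 143 FPKM uninduced in the core particle, and 68.0 FPKM induced and 93.5 FPKM uninduced in the regulatory particle.

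**Figure D3:**
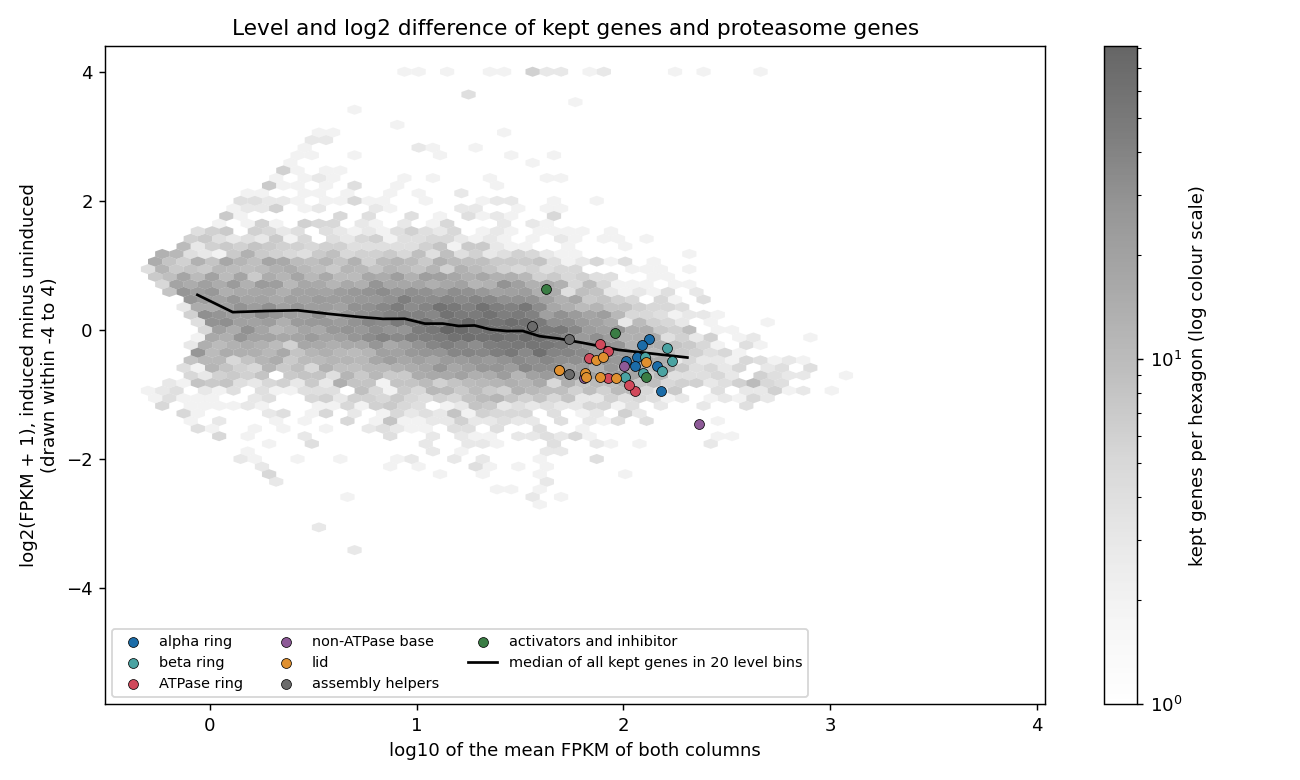
Induced minus uninduced difference in log2(FPKM + 1) (vertical axis) against log10 of the mean FPKM (horizontal axis) for 14319 genes (grey hexagons, drawn within -4 to 4) and the proteasome genes (points coloured by role). The line joins the medians of all genes in 20 bins of level and falls towards high levels. Most proteasome points lie below it, and PSME4, with the highest difference of the proteasome genes, is among those above it.

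Other genes of the ubiquitin-proteasome system were taken from lists, in which 0 genes rose or fell. Of all genes 0.726% rose and 0.454% fell, so a count of 0 in lists this small says little about them. The list counts stand beside 46.3% of all genes below 0. Of the 3198 other genes at the level of the constitutive subunits 64.4% lay below 0 (median -0.20), a range not matched to each list. Of the assembly chaperones, 5 of 6 were lower in induced cells (median -0.31). POMP, which helps close the core, was at 77.9 FPKM (33.0 to 123) induced and 126 FPKM (59.1 to 194) uninduced, and PSMG2 was at 49.3 FPKM induced and 61.6 FPKM uninduced. Of the particle proteins outside the symbol rule, all 4 detected were lower (median -0.56), such as the ubiquitin receptor ADRM1, at 62.3 FPKM induced and 111 FPKM uninduced, and SHFM1, a small lid protein, at 90.6 FPKM induced and 126 FPKM uninduced. Of the ubiquitin genes and activating enzymes reported here all 5 were lower (median -0.51; 4 after quantile normalization), such as RPS27A, at 306 FPKM induced and 546 FPKM uninduced, and UBB, at 386 FPKM induced and 446 FPKM uninduced. Of the shuttle factors and the segregase VCP with its partners 8 of 9 were lower (median -0.47). VCP was at 99.8 FPKM (41.9 to 158) induced and 178 FPKM (68.8 to 288) uninduced, and RAD23B at 106 FPKM induced and 147 FPKM uninduced.

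The genes that control subunit expression lay on the other side. All 8 detected were higher in induced cells (median 0.43; 7 of 8 after quantile normalization), all with overlapping intervals. Over all 14319 genes the median was 0.054 and 46.3% lay below 0. The smallest differences in the list, those of DDI2 (0.071) and NGLY1 (0.063), were close to that median. NFE2L1 was at 123 FPKM (23.0 to 224) induced and 90.2 FPKM (15.7 to 165) uninduced, and NFE2L2 at 84.9 FPKM induced and 63.9 FPKM uninduced. The NFE2L2 target list was split, with 4 of 8 higher and 4 lower, and 0 rose or fell, where 0.726% of all genes rose and 0.454% fell. NQO1 was at 169.8 FPKM (68.4 to 271) induced and 545 FPKM (209 to 881) uninduced, and TXNRD1 at 140.0 FPKM (22.3 to 258) induced and 253 FPKM (43.8 to 462) uninduced. GCLC, chosen after its values were seen, was at 73.5 FPKM (14.6 to 132) induced and 10.9 FPKM (0 to 22.7) uninduced. Under a looser criterion, that an interval of the difference excludes 0, GCLC rose and NQO1 fell, where 1.26% of all genes rose and 1.11% fell, and still 0 of the 37 proteasome genes did.

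The interferon-inducible counterparts differed in the opposite direction from the subunits they replace. All 5 genes of the immunoproteasome and inducible activator list were higher in induced cells (median 0.69), with overlapping intervals. PSME2 was at 223 FPKM induced and 138 FPKM uninduced, and PSME1 at 209.8 FPKM (98.7 to 321) induced and 134 FPKM (57.1 to 211) uninduced. PSMB8 made up 52.2% of the summed FPKM of PSMB5 and PSMB8 in induced cells and 23.1% in uninduced cells, PSMB9 made up 59.7% and 10.4% of the sum with PSMB6, and PSMB10 made up 25.7% and 14.2% of the sum with PSMB7. The induced intervals of PSMB8, PSMB9 and PSMB10 start at 0, as do the uninduced intervals of PSMB9 and PSMB10. PSMB8 and PSMB9 also share a span, so these shares are imprecise.

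**Figure D4:**
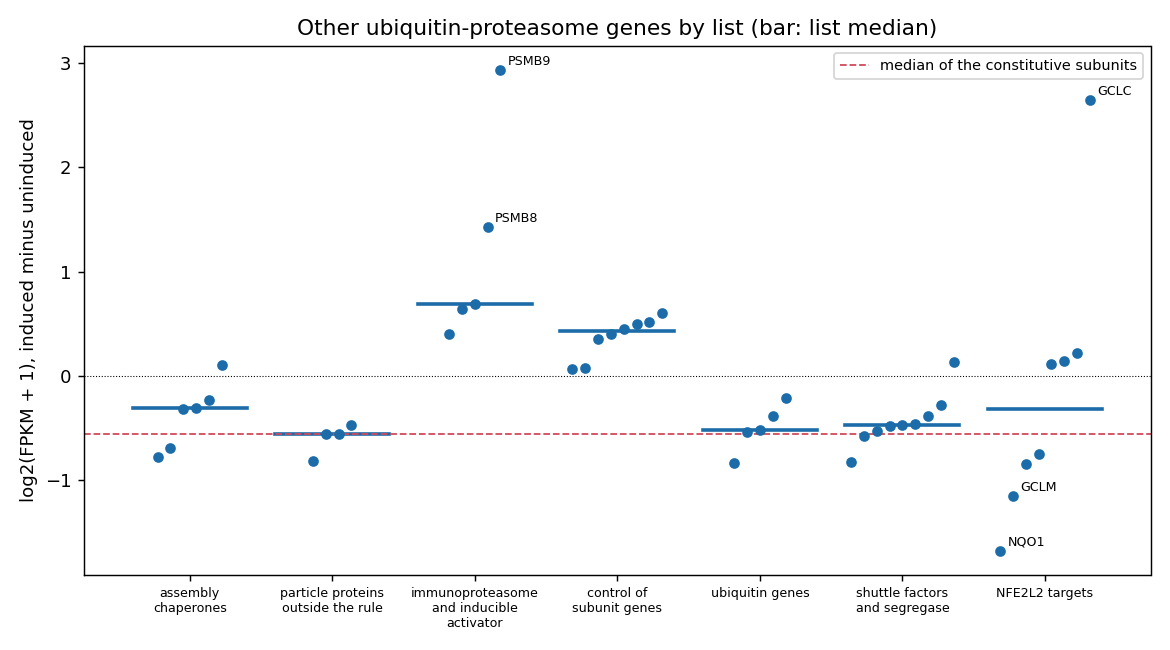
Induced minus uninduced difference in log2(FPKM + 1) of single genes (vertical axis) in 7 lists of the ubiquitin-proteasome system (horizontal axis), with a bar at each list median. The dashed line marks the constitutive subunit median of -0.56. The immunoproteasome list and the list of genes that control subunit expression lie above 0, and the NFE2L2 targets lie on both sides.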

How the data were processed

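RNA was extracted with columns and sequenced from libraries that do not keep strand, per the labels' protocols. The submitters' processing notes name TopHat and hg19. Quantifier and filters: not given in the sources used here. Per the file headers, the authors deposited FPKM with lower and upper bounds, 1 column of each per group. Whether a column combines both samples, and the level of the intervals, is not stated. Another 3 value columns match no sample used here and were left out. Total reads are unknown.

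Genes with at least 1 FPKM in either column were kept, with the row of highest mean per symbol (PSMA2 has 2). Log2 differences are of FPKM + 1, which understates low genes. With 1 value per group no test was possible (limma had been planned if libraries were separate), and non-overlap of the intervals was used. It was tried on simulated data with large differences and with intervals narrower than the deposited ones. That trial does not show how the criterion performs at the precision of these data. Of the kept genes 3 had malformed bounds and were never called. Locus starts count from 0 in the table (22132 gene lengths equal the GENCODE ones that way, 326 the other way) and are printed from 1. A span is called shared where it overlaps that of another kept gene, and how the spans were set is not given in the sources used here.

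Every member may be named; those given in full are the 3 catalytic subunits and each group's extremes of difference and level, and of each list the 2 most abundant genes. From the list of ubiquitin genes 1 gene is not reported here, and the list's values leave it out. Members, lists and motifs were chosen with earlier results of these data known. Analyses used Python 3.11.15 and pandas 2.3.3.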

Additional observations from a re-analysis of the deposited data

How the results depend on the processing

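No paired analysis was possible because each group has only 1 deposited value per gene. For the same reason limma with a replicate block and leaving out a library were not run. The count of 0 proteasome genes with separate intervals was also 0 under both scalings, with no filter, with a minimum mean of 5 FPKM and when the interval of the difference had to exclude 0. The results of both filters were fixed in advance, since every member had a mean of at least 36.1 FPKM and PSMA8 was at 0 in both columns. The count was 1 with a 2-fold difference alone, an alternative chosen after seeing the data, as was leaving out PSMD2.

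Equal FPKM sums shifted the median over all genes by 0.18, and quantile normalization by -0.069. Group medians with the same sum were -0.29 (alpha ring), -0.43 (beta ring), -0.39 (ATPase ring), -0.55 (non-ATPase base), -0.45 (lid), 0.060 (assembly helpers), 0.15 (activators and inhibitor) and -0.36 (all members). After quantile normalization they were -0.26, -0.43, -0.42, -0.61, -0.53, -0.026, 0.18 and -0.33 in the same order. The log2 difference of PSMA4 became 0.055 and 0.086 under the 2 scalings and that of PSMF1 0.15 and 0.18, and that of PSMD10 became 0.060 with the same sum. With the interquartile range in place of the SD, the spread of levels, induced minus uninduced, was 0.054 in the alpha ring (-0.056 by SD), 0.19 in the beta ring, -0.37 in the ATPase ring and 0.14 in the lid. With the interval of the difference 2 NFE2L2 targets were called. The other alternatives (pseudocount 0.1, both filters, unshared spans, all rows, without PSMD2, centring on the median of all genes) moved no group median by more than 0.1. Several could not move it. Leaving out PSMD2 applied to the base and all members only, and in the base it left the same genes as unshared spans. No beta ring gene shares its span, and unshared spans left only PSMD10 and PSMF1 in the last groups, where they already set the medians. No filter added only PSMA8, and all rows only the second row of PSMA2. Centring subtracts the same 0.054 from every gene and the minimum mean drops no member, so the size of their effect was fixed in advance.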

Other observations

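Symbols marking pseudogenes of the proteasome genes had 29 rows, of which 26 were at 0 in both columns. The highest was PSMC1P1, at 1.33 FPKM in induced cells and 2.03 FPKM in uninduced cells, beside 62.8 and 105 FPKM for PSMC1. A second row with the symbol PSMA2 was at 17.2 FPKM (0 to 36.1) induced and 18.0 FPKM (0 to 38.4) uninduced. The 37 genes lie on 15 chromosomes, 7 of them on chromosome 17 and 5 on chromosome 14.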
